A study of Mus musculus with 40 samples.

Results

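Eicosanoids are signalling lipids made from arachidonate, and the enzymes described here are those that turn arachidonate into prostaglandins, leukotrienes and hydroxy fatty acids. The members were the probes whose gene name on the array was Alox5, Alox5ap, Alox8, Alox12, Alox12b, Alox15, Ptgs1, Ptgs2, Ptgds or Ltc4s. All 10 genes were found, with 12 probes of the 55589 that were kept and with 10 of 36362 gene names. Alox12 and Alox12b had a pair of probes each, and 5 of the genes lie on chromosome 11.

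RNA from the cerebral cortex and the cerebellum of C57Bl/6 mice was hybridized to 40 Agilent 1-colour arrays, with 4 mice in each of 10 groups. A normal diet (36 mg/kg of α-tocopherol) was given to young wild-type mice (2 months) and to aged wild-type mice (29 months), which are called the aged controls below. The other aged mice were wild type and fed a diet deficient in α-tocopherol (deficient wild-type mice), lacked Ttpa and ate that same diet (deficient Ttpa-/- mice), or lacked Ttpa and ate a diet supplemented to 600 mg/kg (supplemented Ttpa-/- mice). Ttpa encodes the alpha-tocopherol transfer protein, which the liver uses to keep vitamin E in the blood. The labels name no promoter or tissue that limits the loss of Ttpa, do not state the sex, and do not say whether cortex and cerebellum of a replicate number came from one mouse.

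Prostaglandin synthesis starts with the cyclooxygenases, the constitutive Ptgs1 (COX-1) and the inducible Ptgs2 (COX-2), and in brain Ptgds then makes prostaglandin D2. Leukotriene synthesis starts with 5-lipoxygenase (Alox5), which needs its helper at the nuclear membrane, Alox5ap (FLAP), and Ltc4s joins the product to glutathione to give leukotriene C4. The other lipoxygenases oxygenate arachidonate at other carbons: Alox12 is the platelet enzyme, Alox15 is best known from macrophages and reticulocytes, and Alox8 and Alox12b from the skin.

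A level below is the log2 of the signal minus the log2 of the array's own 75th percentile, so levels of one probe can be set side by side across arrays, and levels of different probes cannot. A change was called when limma's adjusted p was under 0.05 and the fold change was over 1.5. P-values were adjusted over every probe with 4 of 4 arrays well above background in either group. Within a group the arrays correlated at 0.973 to 0.993 over all probes. The labels of region were checked with marker genes. The mean level of 5 cortex neuron genes was 2.24 to 2.79 in the cortex and -4.98 to -4.06 in the cerebellum, and that of 5 cerebellum neuron genes was -3.26 to -2.84 and 5.03 to 5.65. Of the Ttpa probes, A_66_P128446 was well above background in the cerebellum on 4 of 4 arrays of each wild-type group, at -4.29 to -2.76. It was well above background on 0 of 4 arrays of deficient and 1 of 4 of supplemented Ttpa-/- mice, at -7.04 to -5.00. In the cortex it was above background on 1 array in all, so Ttpa could not check the genotype there. The other Ttpa probe, A_55_P2013701, was above background on 1 of 40 arrays, and that was the 2nd array labelled deficient Ttpa-/- cerebellum, at -2.67, with the other arrays at -7.42 to -4.72. A_66_P128446 was not above background on it, so the probes disagree for this array, and results are also given without it. Each slide carried 8 arrays of 2 groups, and only 3 of the 14 comparisons set groups of one slide against each other: aging in the cortex, the deficient diet in the wild-type cerebellum, and the deficient against the supplemented diet in the Ttpa-/- cerebellum. In the others slide and condition cannot be told apart.

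Not every enzyme had a measurable signal. Alox5, Alox5ap, Ptgs1, Ptgds, Ltc4s and the Alox12b probe A_51_P447258 were well above background on all 40 arrays. Ptgs2 was above background on 33 arrays, 20 of the cortex and 13 of the cerebellum. The Alox12b probe A_55_P2121682 was above background on 30 arrays, all 20 of the cortex and 10 of the cerebellum, and the Alox12 probe A_52_P467449 on 19, of which 3 were of the cortex and 16 of the cerebellum. Alox8, Alox15 and the Alox12 probe A_51_P520306 were above background on 0 arrays and entered no test. No member probe was saturated.

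**Figure D1:**
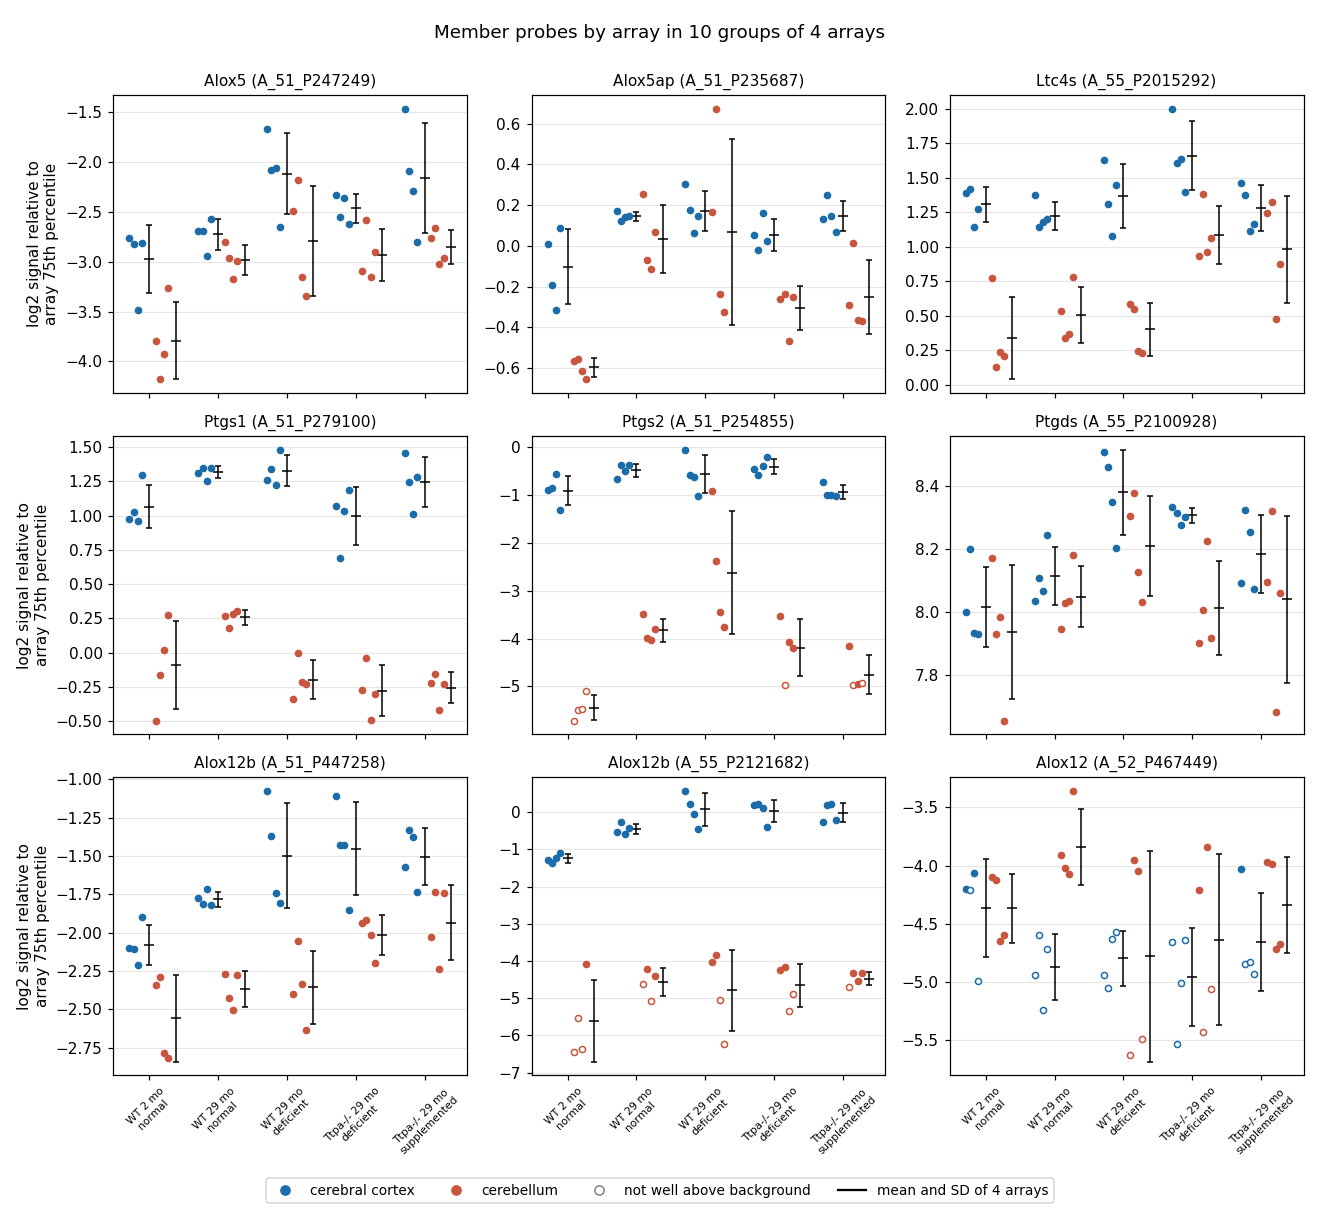
Level of 9 member probes on each of 40 arrays, as log2 signal relative to the array's 75th percentile (each vertical axis has its own range), by group and region; bars give the mean and SD of 4 arrays and open circles mark arrays not well above background. The Alox12b probe A_55_P2121682 separates the regions on all arrays and Ptgs2 on all but 1 cerebellar array, at -0.91, and Ptgs2 of the young cerebellum, at -5.71 to -5.10, is the lowest group of its panel.

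Most of the tested members differed between the regions. At 2 months 5 of 9 tested member probes were higher in the cortex than in the cerebellum and 0 were lower, where 38.4% of all tested probes were called and 19.1% were higher. At 29 months 5 of 9 were higher and 1 was lower, where 33.6% of all tested probes were called, 15.8% higher and 17.8% lower. The median change of the tested members was 0.82 at 2 months, against 0.02 over all tested probes, and 0.59 at 29 months, against -0.01. Some members entered only through the region where they are high, so these counts and medians are not independent of the filter. At 2 months Ptgs2, with 0 of 4 cerebellar arrays above background, and the Alox12b probe A_55_P2121682, with 1 of 4, did so. At 29 months A_55_P2121682 did, with 2 of 4, and Alox12 did through the cerebellum, with 0 of 4 cortical arrays. The 5 higher probes at 29 months include the pair for Alox12b. The higher ones at both ages were Ptgs1, Ptgs2, Ltc4s and the Alox12b probe A_55_P2121682. At each age 6 of the 9 had regions that did not overlap, as had 58.1% of all tested probes at 2 months and 56.4% at 29 months.

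With age the calls were in the cerebellum. In the aged controls 3 of 8 tested member probes rose against young mice, Ptgs2, Alox5 and Alox5ap, and 0 fell, where 5.03% of all tested probes were called and 3.99% rose. All 8 had a positive change, with a median of 0.44 against -0.01 over all tested probes. Of these 8, Ptgs2 met the background rule only through the aged arrays, with 0 of 4 young arrays above background. Its rise is thus not independent of the filter, and it is part of these counts and of the median. In the cortex 0 of 8 were called by limma, where 2.09% of all tested probes were called, and 1 had an unadjusted p under 0.05, which 14.9% of all tested probes had. Their median change was 0.25 against -0.03 over all tested probes. The methods' t-test called 1 in the cortex, both before and after adjustment. A call in 1 region does not show that the regions differ. Of the member probes tested for such a difference, as an interaction, 0 passed by limma in any of the 6 effects, where 2.07% of all tested probes passed for aging, 8.23% for oxidative stress (below), 0.00728% for the deficient diet in wild-type mice, 1.2% for supplemented Ttpa-/- mice against the aged controls, 0.111% for the diets within Ttpa-/- mice and 1.37% for genotype on the deficient diet.

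Vitamin E and genotype gave few calls, all in the cerebellum. On the deficient diet 1 of 8 tested member probes rose in the wild-type cerebellum, Ptgs2, where 1.28% of all tested probes were called and 0.461% rose. Deficient Ttpa-/- mice differed from deficient wild-type mice in 2 of 7 tested member probes, with Ltc4s up and Ptgs2 down, where 4.94% of all tested probes were called, 3.02% up and 1.92% down. Ptgs2 met the background rule here only through the wild-type arrays, as 3 of 4 Ttpa-/- arrays were above background. Deficient Ttpa-/- mice set against the aged controls are called oxidative stress here. The study uses the term for aged Ttpa-/- against wild-type mice, and its text gives no diet for those arrays. For this comparison limma called 0 of 8 in the cerebellum, where 4.46% of all tested probes were called. Without the 2nd array of deficient Ttpa-/- mice 1 was called, Ptgs1, at -0.61. For supplemented Ttpa-/- mice against the same controls it called 0 of 8, where 4.91% were called. The methods' t-test called 1 of the latter before and 0 after adjustment. In both of these comparisons 5 of 8 had an unadjusted p under 0.05, against 27.5% and 28.5% of all tested probes. For the deficient against the supplemented diet within Ttpa-/- mice it called 0 of 7, with 0 at an unadjusted p under 0.05, where 0.343% of all tested probes were called and 11.6% had such a p. These comparisons share control groups with each other and with aging, so they are not independent of one another.

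In the cortex limma called 0 of 8 tested member probes in each of the 5 comparisons of diet and genotype. Of all tested probes 4.75% were called for oxidative stress, 0.223% for the deficient diet in wild-type mice, 0.092% for supplemented Ttpa-/- mice, 3.31% for the diets within Ttpa-/- mice, and 3.07% for genotype on the deficient diet. The members with an unadjusted p under 0.05 were 3, 2, 1, 2 and 1 of 8 in that order, where 32.8%, 15.6%, 8.51%, 28.2% and 29% of all tested probes had one. The methods' t-test called 1 of them at an unadjusted p for the deficient diet in wild-type mice and 0 in the other cortical comparisons of diet and genotype.

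**Figure D2:**
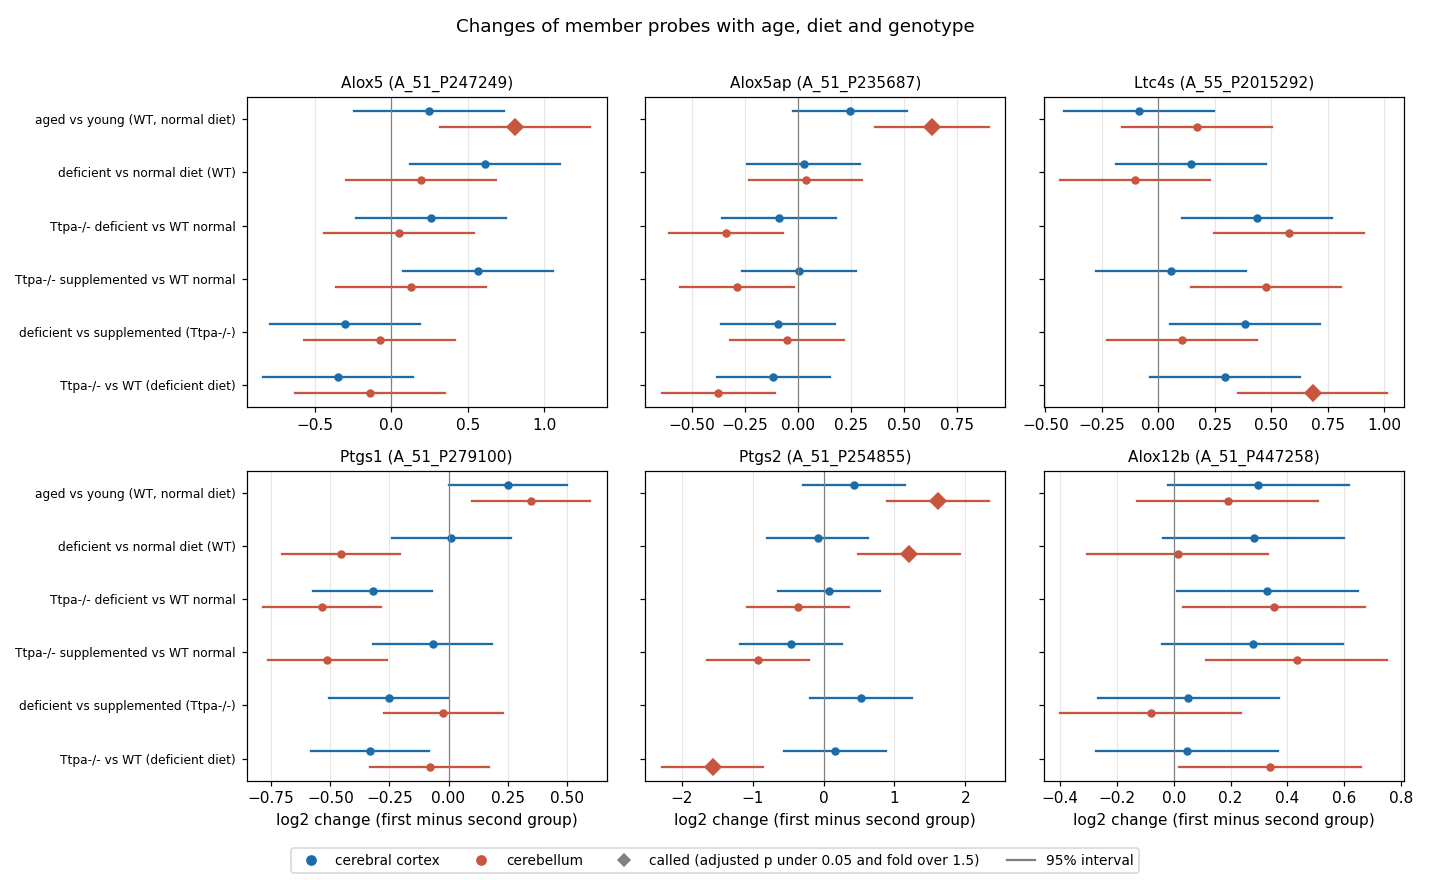
Log2 change of 6 member probes in 6 comparisons (first minus second group; each horizontal axis has its own range), cortex and cerebellum, with 95% intervals of the limma fit; diamonds are called changes. A value is drawn only where the probe was tested. The 6 called changes are all in the cerebellum.

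The leukotriene branch begins with Alox5 and its helper Alox5ap. The Alox5 probe lies at chr6:116360326-116360385 on the minus strand and that of Alox5ap at chr5:150099347-150099406 on the plus strand of mm9, the build of the files. The last 30 bases of each are shown because both probes were among the 3 that rose with age in the cerebellum, with no stretch marked in capitals.
Alox5: taggtgcttagagaaagttcttggattaag
Alox5ap: gcttctgctcctcttcaagctgtagatgct

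In the cerebellum of young wild-type mice the level of Alox5 was -3.79, -4.18, -3.93 and -3.27. In the aged controls it was -2.80, -2.96, -3.18 and -3.00. All aged arrays lay above all young ones, and the 4th young array was nearest to them. The change was 0.81 (SE 0.24; adjusted p = 0.0251), a fold change of 1.75. It was no longer called without the 1st, 2nd or 3rd young array, with changes of 0.81, 0.68 and 0.76 and adjusted p of 0.0559, 0.115 and 0.0646, nor without the 1st or 4th aged array, with 0.75 and 0.81 and adjusted p of 0.0788 and 0.0545. With the 2 groups fitted alone its adjusted p was 0.0524, and it was not called.

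Alox5ap had levels of -0.56, -0.56, -0.61 and -0.66 in the young cerebellum. In the aged controls they were 0.25, -0.07, -0.11 and 0.07. The groups did not overlap, as for 19.1% of all tested probes, and the young arrays lay within an SD of 0.05. The change was 0.63 (SE 0.13; adjusted p = 0.00115), a fold change of 1.55. Without the 1st aged array the fold was under 1.5, at a change of 0.56 (adjusted p = 0.00963), and the call was lost. The calls of Alox5 and of Alox5ap were also lost with median scaling and with normexp background correction.

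Markers of microglia, the macrophages of the brain, moved with these changes in the cerebellum. The mean level of 10 microglia marker genes was 1.53 to 1.88 in the young cerebellum and 2.65 to 2.75 in the aged one, and 7 of 10 were called as higher, with a median change of 0.86 against -0.01 over all tested probes. All 10 were above background on all arrays of both groups, and their summed linear level was 223 to 242 in the young and 232 to 278 in the aged cerebellum, so the sum, which the brightest genes carry, overlapped. In the cortex, where the difference of Alox5 was 0.24 (adjusted p = 0.734) and that of Alox5ap 0.25 (adjusted p = 0.396), the mean was 3.19 to 3.37 in young and 3.09 to 3.48 in aged mice. Genes of disease-associated microglia rose in both regions, 6 of 7 in the cerebellum, from -3.52 to -3.23 up to 0.22 to 0.75, and 5 of 7 in the cortex, from -2.71 to -2.51 up to -0.78 to 0.40. Of 7 granulocyte and red cell genes 2 rose in the cerebellum, where their mean was -1.89 to -0.37 in young and 0.42 to 2.96 in aged mice, with a median change of 2.47. In the cortex, where Alox5 and Alox5ap were not called, 2 of 5 tested rose, with means of -4.25 to -2.94 and -1.57 to -0.87 and a median change of 2.75. The part of these cells in the Alox5 and Alox5ap results was not tested, and in bulk tissue more cells of a type and more RNA per cell cannot be told apart.

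**Figure D3:**
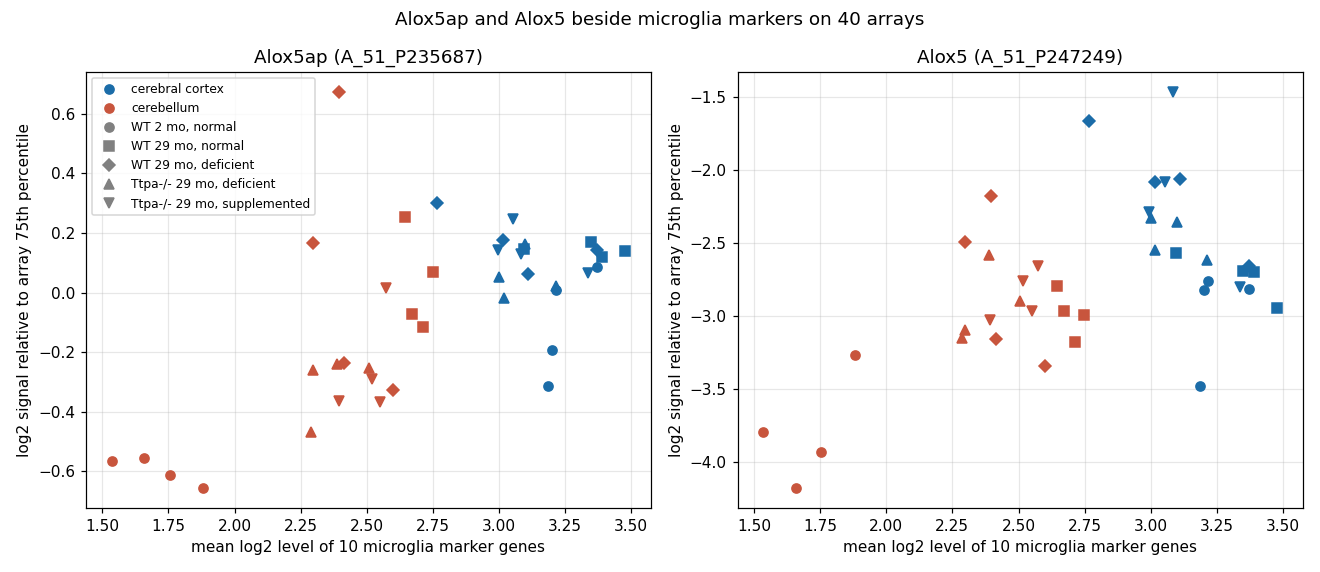
Level of Alox5ap (left) and Alox5 (right), as log2 signal relative to the array's 75th percentile, against the mean level of 10 microglia marker genes on each of 40 arrays, by region (colour) and group (shape). The young cerebellum, at 1.53 to 1.88 for the markers, has the lowest Alox5ap levels; cortical arrays have higher marker means than all arrays of the cerebellum, also where Alox5 and Alox5ap levels are alike.

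Diet and genotype gave Alox5 and Alox5ap no call. In the cerebellum of deficient wild-type mice Alox5 had levels of -2.49, -2.18, -3.16 and -3.34 and Alox5ap of 0.17, 0.67, -0.24 and -0.33. The first 2 arrays were the highest of that group for both genes, and both genes overlapped with the aged controls. Alox5ap in the cerebellum was -0.26, -0.24, -0.47 and -0.25 in deficient and -0.29, 0.01, -0.36 and -0.37 in supplemented Ttpa-/- mice. Against the aged controls these were changes of -0.34 (adjusted p = 0.0841) and -0.29 (adjusted p = 0.144). The deficient group did not overlap with the controls, as for 17% of all tested probes. In the cortex the largest change of Alox5 was 0.61 (SE 0.24; adjusted p = 0.214), for deficient wild-type mice, with levels of -1.67, -2.08, -2.06 and -2.66 against -2.69, -2.70, -2.95 and -2.57. The 4th array on the deficient diet lay within the controls. In supplemented Ttpa-/- mice the cortical change of Alox5 was 0.57 (adjusted p = 0.470), with levels from -2.80 to -1.47.

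Between the regions, Alox5 was higher in the young cortex by 0.82 (SE 0.24; adjusted p = 0.00369), although the 3rd array of the young cortex, at -3.48, lay below the highest of the young cerebellum. At 29 months the difference was 0.26 (adjusted p = 0.377). Alox5ap was 0.50 higher in the young cortex (adjusted p = 0.00156), at a fold of 1.41 that is under 1.5, and 0.11 higher at 29 months (adjusted p = 0.495). The young cerebellum enters both this comparison and the aging one. Whether aging itself differed between the regions was tested as an interaction. The change of the cortex minus that of the cerebellum was -0.57 for Alox5 (adjusted p = 0.564) and -0.39 for Alox5ap (adjusted p = 0.399), neither of which passed.

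Ltc4s, the last step to leukotriene C4, was called between genotypes and regions and in neither aging comparison. Its probe lies at chr11:50049974-50050031 on the minus strand, and a 30-base stretch of it is shown because it holds the hexamer ATTAAA, a common variant of the polyadenylation signal, in capitals.
Ltc4s: tcccagtttttaATTAAAgttcccacgacg

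In the cerebellum of deficient wild-type mice the level of Ltc4s was 0.59, 0.55, 0.25 and 0.23. In deficient Ttpa-/- mice it was 0.93, 1.39, 0.96 and 1.07. All Ttpa-/- arrays lay above all wild-type arrays, as groups lay apart for 13.5% of all tested probes. The change was 0.68 (SE 0.16; adjusted p = 0.00548), a fold change of 1.60. It was not called without the 2nd Ttpa-/- array, on which the Ttpa probes disagree, because the change of 0.58 (adjusted p = 0.0257) is under 1.5-fold, nor when these 2 groups were fitted alone (adjusted p = 0.0605).

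Against the aged controls, at 0.54, 0.34, 0.37 and 0.78, Ltc4s in the cerebellum of deficient Ttpa-/- mice differed by 0.58 (adjusted p = 0.0169; fold 1.49). In supplemented Ttpa-/- mice, at 1.25, 1.33, 0.48 and 0.88, it differed by 0.47 (adjusted p = 0.0457; fold 1.39). Both folds are under 1.5 and neither was called. The former lay so near the limit that it was called in 5 of the 8 fits without a single array, with changes of 0.48 to 0.67 over these fits. The groups of the second comparison overlapped through the 3rd supplemented array. Within Ttpa-/- mice the diets differed by 0.10, with a 95% interval from -0.23 to 0.44.

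In the cortex Ltc4s was 2.00, 1.61, 1.64 and 1.40 in deficient Ttpa-/- mice and 1.37, 1.14, 1.18 and 1.20 in the aged controls. The groups did not overlap, as for 23.4% of all tested probes, and the change was 0.44 (SE 0.16; adjusted p = 0.0559), which was not called. In supplemented Ttpa-/- mice the cortical change was 0.06 (adjusted p = 0.986). The effect of oxidative stress on Ltc4s differed between the regions by -0.14 (adjusted p = 0.759). Aging gave a change of -0.08 in the cortex (adjusted p = 0.889) and 0.17 in the cerebellum (adjusted p = 0.629). Ltc4s was higher in the cortex than in the cerebellum by 0.97 at 2 months (SE 0.16; adjusted p = 4.76e-06) and by 0.72 at 29 months (SE 0.16; adjusted p = 0.000357).

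The cyclooxygenase branch begins with Ptgs2, whose probe lies at chr1:151954744-151954803 on the plus strand. The last 30 bases of the probe are shown because Ptgs2 was called in 5 of 14 comparisons, more than any other member gene.
Ptgs2: ctgttggaatttacgcataaagcagactgc

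In the cortex Ptgs2 was above background on all 20 arrays, from -1.31 to -0.05. In the young cerebellum it stood at -5.71, -5.49, -5.47 and -5.10, with 0 of 4 arrays above background. In the aged controls it was -3.49, -3.98, -4.03 and -3.81, above background on all 4. The lowest aged array lay more than 1 log2 unit above the highest young one, and the groups were on different slides. The fitted change was 1.61 (SE 0.35; adjusted p = 0.00195), and against the detection limit of the young arrays Ptgs2 was at least 1.93-fold higher in aged mice. Leaving out single arrays gave 1.50 to 1.73 and kept the call, but with normexp background correction the change was 0.41 (adjusted p = 0.263). That correction, as run here, adds an offset of 50 to every signal, which makes changes of dim probes smaller. Immediate early genes of neuronal activity, a class to which Ptgs2 belongs in neurons, had mean levels of -1.23 to 0.41 in the young and -0.09 to 0.17 in the aged cerebellum, with 1 of 9 called as higher, and summed linear levels of 11.6 to 34.8 and 20.3 to 25.9. Their part in the result was not tested.

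The aging change of Ptgs2 in the cortex was 0.43 (SE 0.35; adjusted p = 0.653), from levels of -0.90, -0.85, -0.57 and -1.31 to -0.66, -0.38, -0.51 and -0.38. One young array, the 3rd, lay above the 1st aged one. The difference of the aging change between the regions was -1.18 (95% interval -2.20 to -0.17; adjusted p = 0.299). With these 4 groups fitted alone its adjusted p was 0.0270, where 1.41% of all tested probes passed. Both values use young cerebellar arrays on which Ptgs2 was not above background, so they are fitted values and not a measured size. The spread of Ptgs2 within groups was 0.25 in the cortex and 0.68 in the cerebellum (pooled SD), and the fit of all arrays gives both regions 1 spread.

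Deficient wild-type mice had cerebellar Ptgs2 levels of -0.91, -2.37, -3.44 and -3.76. The 1st and 2nd arrays lay far above the aged controls and the 3rd above all of them, while the 4th lay among them, so the groups overlapped. The change was 1.21 (SE 0.35; adjusted p = 0.0446), a fold change of 2.31 between groups of one slide, and the exact two-sided permutation test gave p = 0.0571, where 0.0286 is the smallest it can give. The call rests on single arrays. Without the 1st deficient array the change was 0.64 (adjusted p = 0.291) and without the 2nd 1.12 (adjusted p = 0.124). Without each of the control arrays in turn it was 1.32, 1.16, 1.14 and 1.22, with adjusted p of 0.0827, 0.0795, 0.109 and 0.0854. The pair of arrays with the highest Ptgs2 were also the highest of their group for Alox5 and Alox5ap. Their neuronal activity means were 0.14 and -0.25, within the group's range of -0.25 to 0.27. Their cortex neuron means lay within -4.81 to -4.52. Their oligodendrocyte means, 2.76 and 2.91, were the lowest of the 20 cerebellar arrays, the others being at 3.13 or more, and their microglia means, 2.30 and 2.40, were the lowest of their group. Of 8 oligodendrocyte genes 2 fell in this comparison, with a median change of -0.50. The part of these cells in the Ptgs2 result was not tested.

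Deficient Ttpa-/- mice had cerebellar Ptgs2 levels of -3.52, -4.96, -4.07 and -4.20, of which the 2nd was not above background. The groups overlapped. Ptgs2 was lower than in deficient wild-type mice, with a log2 change of -1.57 (SE 0.35; adjusted p = 0.00350), with an exact permutation p of 0.0571. It stayed called without each array, at -1.95 to -0.996, and the smallest size, -0.996 (adjusted p = 0.0241), came without the 1st wild-type array. Without the 2nd Ttpa-/- array it was -1.31 (adjusted p = 0.0193). With the 2 groups alone the adjusted p was 0.242, so this call also depends on the spread taken from the other groups. Against the aged controls the log2 difference of Ptgs2 in deficient Ttpa-/- mice was -0.36 (adjusted p = 0.559). In supplemented Ttpa-/- mice, at -4.15, -4.98, -4.96 and -4.92 with 2 arrays above background, it was -0.92 (SE 0.35; adjusted p = 0.0750), and these groups did not overlap, as for 21.3% of all tested probes. The mean of the neuronal activity genes was -0.40 to -0.23 there, below the -0.09 to 0.17 of the aged controls, with 1 of 9 called as lower. In the cortex of supplemented Ttpa-/- mice Ptgs2 was -0.73 on the 1st array and -1.02 to -0.99 on the others, all below the aged controls, as groups lay apart for 6.87% of all tested probes, with a change of -0.46 (adjusted p = 0.860). Deficient Ttpa-/- mice, at -0.45, -0.58, -0.40 and -0.20 in the cortex, lay above all supplemented ones, with a change of 0.53 (adjusted p = 0.344), where 19% of all tested probes did not overlap. The neuronal activity means were 2.31 to 2.67 and 1.74 to 2.30 in the same order, with 1 of 9 called as higher and a median change of 0.51. Their part in these differences was not tested. The effect of genotype on the deficient diet differed between the regions by 1.72 (SE 0.50; adjusted p = 0.0663).

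Ptgs2 and the Alox12b probe A_55_P2121682 were bright in the cortex and near background on many cerebellar arrays. Ptgs2 was at least 14.6-fold higher in the cortex at 2 months (adjusted p = 6.41e-13), and 10.2-fold higher at 29 months, a change of 3.35 (SE 0.35; adjusted p = 9.15e-10). Neuronal activity genes were also higher in the cortex, 7 of 9 at both ages, with median changes of 2.31 and 2.81, and their part in the result was not tested.

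The Ptgs2 promoter is shown because Ptgs2 was called most often and is known as an inducible gene with response elements near its start. The window runs from 100 bases before to 30 bases after the annotated start, at chr1:150099931-150100060 on the plus strand of GRCm38.p6, from RefSeq, and is not on the build of the probes. Capitals mark the overlap of a CRE-like ACGTCA with the E-box CACGTG, found by search of both strands. The marked stretch lies after the annotated start and not before it, beginning at base 13 of the 30 shown there.
Ptgs2 promoter: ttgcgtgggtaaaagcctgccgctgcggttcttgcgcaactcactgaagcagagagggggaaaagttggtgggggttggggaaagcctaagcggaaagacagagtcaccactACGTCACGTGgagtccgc

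Of 32851 RefSeq promoters, longer windows that begin 250 bases before each gene's start, 7.15% hold CACGTG, 7.51% hold ACGTCA and 0.0974% hold the overlapping ACGTCACGTG. Of the 8 member genes whose promoter was in the table, Ptgs2 alone held each of them. The motifs, their joined form and the Ptgs2 promoter were set by choice and did not come from a scan for motifs. These shares therefore test no link of the motifs to Ptgs2. A match is a string of letters, and no binding was measured.

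Ptgs1, the constitutive cyclooxygenase and in brain largely a microglial gene, was below the aged controls in the cerebellum of all 3 other aged groups, past the adjusted p but under the fold limit. Its probe lies at chr2:36107644-36107703 on the plus strand, and its last 30 bases are shown as the probe behind this shift.
Ptgs1: ggagggaacagatggactcatctatgatct

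The aged controls had cerebellar Ptgs1 levels of 0.27, 0.18, 0.28 and 0.30. Deficient wild-type mice, on the same slide, had -0.34, -0.0051, -0.21 and -0.23. All of the latter lay below all controls, as groups lay apart for 16.8% of all tested probes, and the change was -0.45 (SE 0.12; adjusted p = 0.0311), a fold of 1.37. The levels were -0.27, -0.04, -0.49 and -0.30 in deficient and -0.22, -0.15, -0.42 and -0.23 in supplemented Ttpa-/- mice, which also lay below all controls. The changes were -0.53 (SE 0.12; adjusted p = 0.00421) and -0.51 (SE 0.12; adjusted p = 0.00528), folds of 1.45 and 1.43. By adjusted p alone, without the fold limit, these comparisons held 2 member probes each, where 4.58%, 13.2% and 14.7% of all tested probes passed in the same order. The 3 changes share the 4 control arrays and are not 3 independent results. The mean of the microglia markers was 2.30 to 2.60, 2.29 to 2.51 and 2.39 to 2.57 in these groups, all below the 2.65 to 2.75 of the controls, with summed linear levels of 242 to 319, 193 to 273 and 203 to 254 against 232 to 278. The microglia markers called as lower were 1, 2 and 1 of 10 in that order, and those of disease-associated microglia 0, 4 and 1 of 7, with median changes of -0.25, -0.67 and -0.54. Of the oligodendrocyte genes 2, 2 and 0 of 8 were called as lower, with medians of -0.50, -0.42 and -0.19. The part of these cells in the result was not tested.

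In the cortex Ptgs1 had levels of 1.07, 0.69, 1.04 and 1.19 in deficient Ttpa-/- mice and 1.31, 1.35, 1.26 and 1.35 in the aged controls. The groups did not overlap, but the change of -0.32 (SE 0.12; adjusted p = 0.0640) was not called. Against deficient wild-type mice, at 1.26, 1.34, 1.23 and 1.48, the change was -0.33 (adjusted p = 0.0691), again without overlap, as for 17.2% of all tested probes. Deficient wild-type mice differed from the controls by 0.01 (adjusted p = 0.975). The diet effect on Ptgs1 differed between cortex and cerebellum by 0.47 (adjusted p = 0.246). The aging difference of Ptgs1 was 0.25 in the cortex (adjusted p = 0.334) and 0.35 in the cerebellum (adjusted p = 0.0636). It was higher in the cortex by 1.16 (SE 0.12; adjusted p = 8.78e-10) in young and 1.06 (SE 0.12; adjusted p = 7.46e-09) in aged mice, and all cortical arrays lay above all cerebellar ones. Of the microglia markers 8 of 10 were called as higher in the cortex at 2 months and 5 of 10 at 29 months. Of all tested probes 19.1% and 15.8% were. The markers' summed linear level was 255 to 328 in the cortex and 223 to 242 in the cerebellum at 2 months. At 29 months it was 236 to 310 and 232 to 278, which overlap. Their part in the Ptgs1 difference was not tested.

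Ptgds, the brain synthase of prostaglandin D2, was above background on every array. Its probe lies at chr2:25322232-25322291 on the minus strand, with the polyadenylation signal AATAAA in capitals.
Ptgds: ccttgacaaagaAATAAAagtccaaagcaa

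Its levels lay between 7.65, in the young cerebellum, and 8.51, in the cortex of deficient wild-type mice. Its changes ranged from -0.20 to 0.27, and it was called in 0 of 14 comparisons by limma, with an unadjusted p under 0.05 in 1. The largest, in the cortex of deficient wild-type mice, was 0.27 (SE 0.11; adjusted p = 0.239). The regions differed by 0.08 at 2 months (95% interval -0.15 to 0.31) and 0.07 at 29 months. Ptgds is known from choroid plexus and leptomeninges. The choroid plexus list ranged from a mean of -3.39 to 1.61 over the arrays, while the leptomeninges list ranged from -0.51 to 0.69, and their part in the Ptgds levels was not tested.

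The pair of Alox12b probes read different stretches of the gene. Alox12b encodes the 12R-lipoxygenase, an enzyme that the skin barrier needs. A_51_P447258 lies at chr11:68979536-68979770, where its 60 bases span 235 bases of the genome and so are not contiguous there, and A_55_P2121682 lies at chr11:68983186-68983245, nearer to the end of the gene on the plus strand. Both are shown whole because they gave different results, and they share no run longer than 7 bases.
A_51_P447258: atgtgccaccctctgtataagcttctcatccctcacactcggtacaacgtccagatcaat
A_55_P2121682: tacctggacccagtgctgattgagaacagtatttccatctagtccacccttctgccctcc

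The probe A_55_P2121682 separated the regions on all arrays, and A_51_P447258 did not. In the young cortex it was -1.27, -1.36, -1.24 and -1.08. In the young cerebellum it was -6.44, -5.54, -6.37 and -4.08, with only the 4th array above background. All cortical arrays lay above all cerebellar ones. The fitted difference was 4.37 (SE 0.39; adjusted p = 2.16e-11) at 2 months and 4.13 (SE 0.39; adjusted p = 1.10e-10) at 29 months, where 2 of 4 cerebellar arrays were above background. Its size depends on how the dim cerebellar arrays are treated: with normexp background correction it was 2.03 (adjusted p = 1.79e-14) and 2.41 (adjusted p = 2.27e-16). The probe A_51_P447258 differed by 0.48 at 2 months (adjusted p = 0.00843; fold 1.40) and by 0.59 at 29 months (SE 0.16; adjusted p = 0.00186; fold 1.50). The call of the latter was lost without the 3rd array of the aged cortex, at 0.57, and without the 2nd or 3rd array of the aged cerebellum, at 0.57 and 0.54. Aloxe3, the neighbouring lipoxygenase gene that acts after Alox12b in the skin, had mean levels of 0.33 in the cortex and 0.12 in the cerebellum at 2 months, and 0.65 and 0.49 at 29 months.

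**Figure D4:**
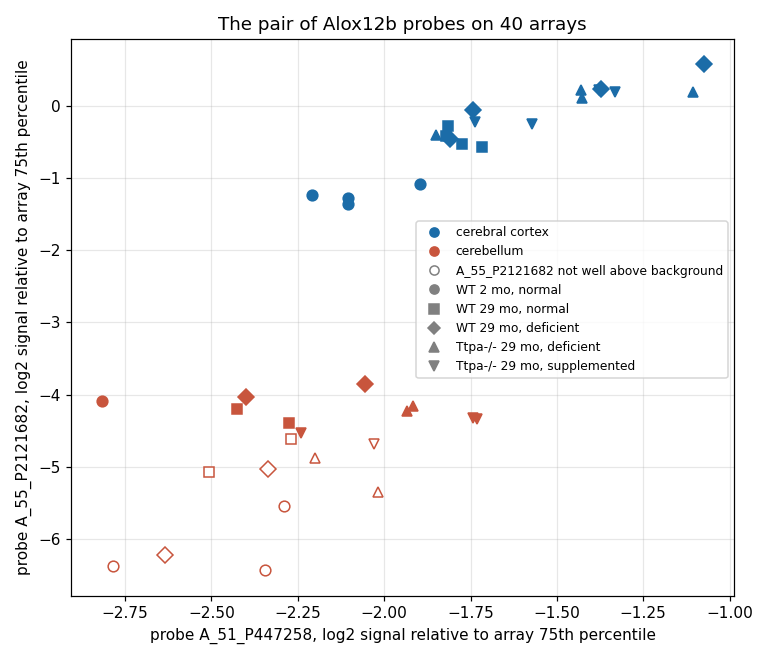
Level of the Alox12b probe A_55_P2121682 against that of A_51_P447258 on each of 40 arrays, both as log2 signal relative to the array's 75th percentile; colour gives the region, shape the group, and open symbols the arrays where A_55_P2121682 was not well above background. The cortical arrays lie at -1.36 to 0.58 on the vertical axis and the cerebellar ones at -6.44 to -3.85, while on the horizontal axis the regions overlap.

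In the cortex of the aged controls A_55_P2121682 was -0.53, -0.27, -0.57 and -0.42. All of these lay above the young levels, on the same slide, and 14% of all tested probes had groups that did not overlap. The change was 0.79 (SE 0.39; adjusted p = 0.345), which was not called. With the pair of groups fitted alone the SE was 0.0979 and the adjusted p 0.0175, and the change was called, where 1.12% of all tested probes were. The pooled SD within groups was 0.27 in the cortex and 0.76 in the cerebellum, where 10 of 20 arrays were not above background, and the fit of all arrays gives both regions 1 spread. Without single arrays the change was 0.73 to 0.84. The probe A_51_P447258 was -2.10, -2.10, -2.21 and -1.90 in young and -1.77, -1.82, -1.72 and -1.82 in aged cortex, groups that did not overlap, with a change of 0.30 (adjusted p = 0.386).

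In the other aged cortical groups A_55_P2121682 was higher still in most arrays. It was 0.58, 0.24, -0.05 and -0.45 in deficient wild-type mice. It was 0.19, 0.22, 0.11 and -0.41 in deficient and -0.25, 0.19, 0.22 and -0.22 in supplemented Ttpa-/- mice. Against the aged controls the changes were 0.53, 0.48 and 0.44, with adjusted p of 0.530, 0.428 and 0.911, and the groups overlapped except for supplemented Ttpa-/- mice. These comparisons share their controls and set groups of different slides against each other.

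Alox12, the platelet 12-lipoxygenase, was the one member called as higher in the cerebellum. The probe A_52_P467449, at chr11:70055715-70055774, was -3.91, -4.02, -4.08 and -3.36 in the cerebellum of the aged controls. In their cortex it was -4.94, -4.59, -5.24 and -4.72, with 0 of 4 arrays above background. The groups did not overlap, and Alox12 was at least 1.38-fold higher in the cerebellum (adjusted p = 0.00984). With normexp background correction the change, the cortex minus the cerebellum, was -0.19 (adjusted p = 0.252). At 2 months the regions overlapped (adjusted p = 0.996). With age its cerebellar change was 0.53 (adjusted p = 0.391), from -4.65 to -4.10 in young mice, without overlap. Deficient wild-type mice had cerebellar levels of -5.63, -3.95, -4.05 and -5.49, with 2 arrays above background, and the change of -0.94 (SE 0.34; adjusted p = 0.0981) was not called. The other Alox12 probe, at chr11:70063629-70063688, gave no signal above background. Of 7 platelet and mast cell genes, 1 or 2 were above background on all arrays of a group, and their summed linear level was 0.820 to 1.87 in the aged wild-type cerebellum and 0.707 to 1.09 in the aged cortex. Of the 2 tested between these groups, Ppbp, a platelet chemokine, was lower in the cortex with -3.28 (adjusted p = 0.00145; 1 of 4 cortical arrays above background), and Pf4, another, differed by -0.18 (adjusted p = 0.594). Both rose with age in the cerebellum, Pf4 by 0.91 (adjusted p = 0.0262) and Ppbp at least 5.55-fold (adjusted p = 0.00577). In deficient wild-type mice they differed from the controls by -0.74 (adjusted p = 0.104) and -1.94 (adjusted p = 0.183). Their part in the result was not tested.

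Alox8, at chr11:68997387-68997446, and Alox15, with a probe over chr11:70159115-70159339, were detected on 0 of 40 arrays. Their signals were not well above background in any group, so no fold is given.

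The other genes of the pathway were 61 genes for the release of arachidonate, terminal synthases, transport and receptors, of which 58 were on the array. The shares of all tested probes called are repeated beside their counts. With age in the cerebellum 4 of 42 tested rose and 1 fell (5.03% of all probes were called). Tbxas1, thromboxane synthase, rose by 1.40 (adjusted p = 3.50e-08), and Hpgds, the haematopoietic prostaglandin D synthase, by 1.53 (adjusted p = 5.37e-05), with 3 of 4 young arrays above background. Ptgis, prostacyclin synthase, rose by 0.80 (adjusted p = 0.0119), and Abcc4, an exporter of prostaglandins, by 0.63 (adjusted p = 0.00683). Gpr17, a receptor of oligodendrocyte precursors once described as a leukotriene receptor, changed by -0.84 (adjusted p = 0.0149). Tbxas1 and Hpgds are known as microglial genes in brain. The values of the microglia markers, whose summed level overlapped between young and aged mice, stand above, and their part in these changes was not tested. In the aging cortex (2.09% of all probes) 1 of 40 rose, Ptgis by 0.84 (adjusted p = 0.0170), and 1 fell, Gpr17 with -0.84 (adjusted p = 0.0321).

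Under oxidative stress 2 of 42 pathway genes fell in the cerebellum and 0 rose, a share of 4.76% that is near the 4.46% of all probes. These were Hpgds with -1.40 (adjusted p = 0.000441), above background on 2 of 4 Ttpa-/- arrays, and Tbxas1 with -0.71 (adjusted p = 0.00236). In the cortex (4.75% of all probes) 2 of 41 fell, a share of 4.88%, Ptgis with -0.79 (adjusted p = 0.00937) and Tbxas1 with -0.71 (adjusted p = 0.00172). Microglia markers were called as lower in the same comparison, 2 of 10 in the cerebellum and 1 of 10 in the cortex, as were 4 of 7 and 3 of 7 genes of disease-associated microglia, and their part was not tested. In the cerebellum of deficient wild-type mice (1.28% of all probes) 1 of 43 rose, the phospholipase gene Pla2g4e by 1.36 (adjusted p = 0.00547), and 2 fell, Hpgd, which degrades prostaglandins, with -0.70 (adjusted p = 0.0163) and Gpr17 with -0.80 (adjusted p = 0.0429). In the cerebellum of supplemented Ttpa-/- mice (4.91%) 2 of 42 rose and 3 fell, with Pla2g4e at 1.26 (adjusted p = 0.00145), Aloxe3 at 0.66 (adjusted p = 0.00786), Gpr17 at -1.03 (adjusted p = 0.00315) and Hpgds at -0.75 (adjusted p = 0.0407). Ggt1, a peptidase that converts leukotriene C4, was at least 1.38-fold lower (adjusted p = 0.0376). Among Ttpa-/- mice 1 of 38 differed between the diets in the cerebellum (0.343%), Pla2g4e, at -1.37 (adjusted p = 0.00476), lower on the deficient diet on the same slide. Between genotypes on the deficient diet 1 of 39 was up and 4 were down in the cerebellum (4.94%), with Gpr17 at 0.68 (adjusted p = 0.0472), Pla2g4e at -1.47 (adjusted p = 0.000279), Ptgis at -0.81 (adjusted p = 0.0112), Hpgds at -0.89 (adjusted p = 0.0178) and Pla2g2d at -0.81 (adjusted p = 0.0166). In the cortex (3.07%) that comparison had 1 of 43 down, Abcc4 at -0.68 (adjusted p = 0.00581). There limma called 0 of 41 for deficient wild-type mice (0.223%) and 0 of 42 for supplemented Ttpa-/- mice (0.092%). Between the diets in the Ttpa-/- cortex it called 0 of 43 (3.31%). In that order 7, 5 and 11 had an unadjusted p under 0.05, where 15.6%, 8.51% and 28.2% of all tested probes had one. The aged controls enter several of these comparisons.

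Between the regions 11 of 40 pathway genes were higher and 2 lower in the cortex at 2 months (38.4% of all probes were called), and 9 of 45 higher and 3 lower at 29 months (33.6%). Ptger3, a receptor of prostaglandin E2, was at least 7.97-fold higher in the cortex at 29 months (adjusted p = 1.44e-09), with 0 of 4 cerebellar arrays above background. Slco2a1, the prostaglandin uptake carrier, was lower in the cortex, with -2.37 (adjusted p = 1.12e-17) at 2 months and -2.60 (adjusted p = 1.25e-18) at 29 months. Alox12e, another lipoxygenase gene, was at least 3.08-fold and 4.07-fold higher in the cortex at 2 and 29 months (adjusted p = 3.84e-09 and 2.25e-08). Tbxas1 was higher in the cortex at 2 months by 1.35 (adjusted p = 2.90e-09) and was not among the genes called at 29 months.

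Genes whose levels most resembled a member's were found over all 40 arrays after each region was centred on its own mean, among 14143 genes above background on at least 36 arrays. This is a description over arrays that share groups and slides. The nearest to Alox5ap were Ncf4, Rac2 and Ncf1, with Pearson's r of 0.824, 0.824 and 0.795. Those of Alox5 were Plin4, Fkbp5 and Ugt1a6b, with r of 0.834, 0.826 and 0.815. Those of Ltc4s were Tgif2lx1, Lst1 and Ppara, with r of 0.904, 0.901 and 0.901, and those of Ptgs1 were Rasgrp2, Arhgef4 and Tmem179, with 0.771, 0.762 and 0.746. For Ptgds they were Ifitm2, Dapl1 and Cp, with 0.757, 0.754 and 0.714. For the Alox12b probe A_51_P447258 they were Wdr62, Obp1a and Gm438, with 0.812, 0.793 and 0.790, and the other Alox12b probe was not ranked. Ptgs2 was above background on too few arrays to be ranked.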

How the data were processed

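The authors deposited for each array the scanner's table, made with Agilent Feature Extraction 10.7.3.1 per the file headers (10.1.1.1 in the submitters' processing notes), whose processed signal is an intensity with the background subtracted. Mean and local background intensities and flag scores of 0 or 1 were deposited beside it. A second deposited file holds the authors' log2 values. They match the values used here, centred by probe, within 0.00085 (median) and 0.00268 (99th percentile), with column medians of -0.235 to 0.185, and served as an alternative.

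Spots flagged as non-uniform or outliers, 95 to 148 of an array, were left out, and spots of a probe were averaged on the log2 scale. A probe was above background when a share of at least 0.5 of its spots was. Of 55681 probes 92 were left out. The array's 75th percentile, 365 to 925, was subtracted on the log2 scale. The precision is limited by 4 arrays a group. R 4.3.3, limma 3.58.1 and data.table (version 1.17.8) were used, on all 40 arrays, 1 coefficient for each of 10 groups, no block, and Benjamini-Hochberg adjustment. The test was checked on simulated data. Region differences were interactions in that fit. "At least" folds set the bright group's mean against the dim arrays' lowest signal above background. Calls lost under the alternatives are counted below, and not every lost call is named. The normexp alternative adds an offset of 50 to every signal, where the median processed signal of an array was 27.0 to 70.9. It therefore makes changes of dim probes smaller. The paper's methods name global normalization and a fold over 1.5 for the arrays, and Student's t tests for data of 2 groups without saying whether that covers the arrays, so that test was an alternative. A gene of the lists was represented by its brightest probe. For the deficient against the supplemented diet in the Ttpa-/- cortex, same-numbered arrays deviated together in all 4 pairs (r of 0.102 to 0.45). In the Ttpa-/- cerebellum 3 of 4 pairs of these diets had an r over 0.1, up to 0.639. Aging in the cortex also had 3 of 4 such pairs, up to 0.496, and the other comparisons had fewer. The labels do not say why.

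The members, gene lists and tests were chosen with earlier results of these data known. Named were all members, the pathway genes with called changes, and the 3 most alike genes of each member. Positions come from the files, and their build is mm9. Exon annotation of mm9 was not used here. Promoters were RefSeq's of GRCm38.p6.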

Additional observations from a re-analysis of the deposited data

Results flagged for a closer look

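Of 86 sets of 4 arrays, each a member probe in a group, 7 held an array that lay far from the other 3, its gap to the nearest, as a share of the whole range, exceeding Dixon's 95% limit for 4 values. Chance gives about 1 in 20 such sets. In the young wild-type cortex Alox5 was -3.48 on the 3rd array, where the nearest was -2.82, and the Alox12 probe A_52_P467449 was -4.99 on the 4th array, where the nearest was -4.21. In the Ttpa-/- cerebellum on the deficient diet Alox5ap was -0.47 on the 3rd array against -0.26. In the Ttpa-/- cortex on the supplemented diet the 1st array stood apart for the Alox12 probe A_52_P467449, at -4.03 against -4.83, and for Ptgs2, at -0.73 against -0.99. In the Ttpa-/- cerebellum on the supplemented diet Ptgs2 was -4.15 on the 1st array against -4.92. In the young wild-type cerebellum Ltc4s was 0.78 on the 1st array against 0.24. On that array the choroid plexus list had a mean level of 1.61, and -2.22 to -1.06 on the other arrays of the group, and its part in the Ltc4s value was not tested. No difference of an effect between the regions passed an adjusted p of 0.05 for a member in the fit of all arrays.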

How the results depend on the processing

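None of the 17 called changes turned direction under the alternatives run. Differences that were not called could cross 0 without single arrays, such as Ptgs2 for the deficient diet in the wild-type cortex, at -0.26 to 0.07. Of the 17, all were kept with quantile normalization and with the authors' log2 values, and 3 were lost with median scaling, 5 with normexp background correction, 1 without the filter on dim probes, 4 with the compared groups alone, and 2 and 4 with the methods' t-test before and after adjustment. For aging in the cerebellum the count of called member probes was 1 with median scaling and 0 with normexp, against 3, since Alox5, at 0.75 and 0.40 (adjusted p = 0.118 and 0.0904), and Alox5ap, at 0.57 in both, lost their call and Ptgs2 did so with normexp. With the groups alone it was 2, without Alox5. For oxidative stress in the cerebellum it was 1 with quantile normalization and 2 by adjusted p alone, against 0. For the deficient diet in the wild-type cerebellum it was 2 with quantile normalization and by adjusted p alone, and 0 without the filter, with the groups alone and with the t-test in either form, against 1. For Ttpa-/- mice on the supplemented diet it was 2 in the cerebellum by adjusted p alone and 1 with the unadjusted t-test, against 0. For aging in the cortex it was 1 with the groups alone and with the t-test in either form, against 0, and for the deficient diet in the wild-type cortex 1 with the unadjusted t-test. For genotype on the deficient diet in the cerebellum it was 0 with the groups alone, 1 with the unadjusted and 0 with the adjusted t-test, against 2. The aging effect differed between the regions for 1 member probe, Ptgs2, with the compared groups alone, against 0. The causes were not tested.

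Without single arrays the counts were 1 to 3 for aging, 0 to 1 for oxidative stress, 0 to 2 for the deficient diet in wild-type mice, 0 to 1 for Ttpa-/- mice on the supplemented diet and 1 to 2 for genotype on the deficient diet, all in the cerebellum, and 5 to 6 between the regions at 29 months and 5 in all at 2 months; in the other comparisons they were 0. With the replicate number as a block, Alox5 in the aging cerebellum kept a change of 0.81 (adjusted p = 0.0140), Ptgs2 under the deficient diet 1.21 (adjusted p = 0.0311), and the block changed no call. The slide as a random block was not run, because it could not be fitted.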
